A study of Mus musculus with 8 samples.

Results

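The genes described here are 10 components of fibroblast growth factor (FGF) signaling, namely the ligands Fgf2, Fgf7, Fgf10 and Fgf18, the receptors Fgfr1, Fgfr2 and Fgfr3, and the feedback inhibitors Spry2, Spry4 and Dusp6. They were taken by symbol from the 22609 gene symbols of the count tables, and all 10 were found and passed the filter on low counts. The cells were immortalized mouse dental papilla lines, mesenchymal cells of the tooth germ that can become odontoblasts. The iBmp2fx/fx cells carried floxed Bmp2 alleles (labelled Bmp2 floxed/floxed, called floxed here) and the iBmp2ko/ko cells carried the Bmp2 deletion (labelled Bmp2 KO, called knockout here), with no other allele or treatment in the labels. For each genotype, 1 library of total RNA was sequenced after 6, 24, 48 and 72 h of culture, 8 libraries in all. The series' design text names 8 h as the earliest time where the labels name 6 h, and 6 h is used here.

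The study asked what the loss of Bmp2 changes in the transcriptome of these cells. Its methods list cells of 6, 48 and 72 h, so the comparison between genotypes rested on these 6 libraries, 3 per genotype, and the 24 h libraries are given apart. Culture times stood in for replicates. Each genotype was a single immortalized line, so the p-values measured the spread between these libraries, which included any change with culture time, and a difference between the genotypes cannot be told apart from a difference between the lines.

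FGF ligands are secreted proteins that bind FGF receptors, a family of receptor tyrosine kinases, together with heparan sulfate on the cell surface. The activated receptor signals through the adaptor Frs2 and the Ras-MAPK cascade to ERK, and ERK switches on transcription factors of the ETS family. Sprouty proteins (Spry2, Spry4) and the ERK phosphatase Dusp6 are induced by the signal and act back on it as inhibitors, so their transcripts are widely used as readouts of FGF and ERK activity. In the tooth germ, FGFs pass between the epithelium and the papilla mesenchyme, and mesenchymal Fgf10 is known for keeping the epithelial stem cells of the mouse incisor.

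Libraries held 25890110 to 32415665 reads on genes. Levels are counts scaled to a library total of 1000000 (CPM), and 3 counts, taken as the floor of detection for counting error only, were 0.0925 to 0.116 CPM. Bmp2 itself had 1 read in the floxed 24 h library and 0 in the other 7 libraries, so it could not check the labels of either genotype. All 8 mesenchyme markers were present in each genotype, with a summed level of 7377 to 9527 CPM in the floxed and 8948 to 14413 CPM in the knockout libraries. Of 12 markers of dental mesenchyme and odontoblasts, 8 exceeded 3 counts in a floxed and 7 in a knockout library, while Barx1, Lhx8, Dspp and Ibsp did not in any. Their summed level was 129 to 202 CPM in the floxed and 70.8 to 128 CPM in the knockout libraries. The part of these 2 lists in the results below was not tested. Summed epithelial markers reached at most 3.15 CPM and endothelial markers at most 3.66 CPM, blood and macrophage markers lay between 2.70 and 14.3 CPM with Ptprc and Emr1 not above 3 counts, and Schwann cell and neuron markers between 21.0 and 58.6 CPM with Sox10 and Snap25 not above 3 counts. The knockout library of 24 h stood apart from its group, since 64.7% of the 13121 genes tested lay nearer to the floxed than to the knockout mean of 6, 48 and 72 h there.

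Promoter sequence was available for 8 of the 10 genes in RefSeq (build GRCm38.p6), as windows from 250 bases before to 50 bases after the start of transcription. Each window was searched on both strands, and without overlap between the motifs, for CCGGAAG (a site of the ETS factors below ERK), TGACTCA (AP-1) and GGCGCC (a site that BMP-activated SMADs can bind). These 3 motifs occurred in 8.86%, 5.20% and 11.9% of 32851 promoter windows. GGCGCC was found in the windows of Fgf2 and Fgfr3, which are shown for that match, and neither of the other motifs was found in a member's window, that of Dusp6 included, which is shown as the ERK readout of the set. These letters are a description and not evidence of binding. The 250 bases before the start are printed 5′ to 3′ on the plus strand, which is the gene's strand in each case, with the motif in capitals.
Fgf2 (chr3:37348403-37348652): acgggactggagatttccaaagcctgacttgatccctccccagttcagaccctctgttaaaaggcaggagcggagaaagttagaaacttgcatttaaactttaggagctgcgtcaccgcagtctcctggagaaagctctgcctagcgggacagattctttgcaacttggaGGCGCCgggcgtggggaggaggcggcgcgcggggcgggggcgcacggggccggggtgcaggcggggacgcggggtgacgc
Fgfr3 (chr5:33721474-33721723, the upstream of 2 entries): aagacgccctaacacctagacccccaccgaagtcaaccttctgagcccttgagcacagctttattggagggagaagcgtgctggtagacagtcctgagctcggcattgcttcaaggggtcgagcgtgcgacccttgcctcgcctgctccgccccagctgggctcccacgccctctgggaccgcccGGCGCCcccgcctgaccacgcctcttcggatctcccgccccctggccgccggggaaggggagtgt
Dusp6 (chr10:99262981-99263230): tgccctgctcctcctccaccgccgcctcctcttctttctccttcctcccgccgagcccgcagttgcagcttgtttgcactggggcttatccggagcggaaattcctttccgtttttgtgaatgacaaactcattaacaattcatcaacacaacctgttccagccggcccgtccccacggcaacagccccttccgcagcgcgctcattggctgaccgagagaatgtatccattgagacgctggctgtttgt
In Fgf2 the capitals begin 80 bases before the start and in this entry of Fgfr3 65 bases before it. The downstream entry of Fgfr3 held GGCGCC at 2 places.

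These 10 FGF genes had a lower mean level in the knockout than in the floxed libraries of 6, 48 and 72 h. At 6, 48 and 72 h, 9 of the 10 were lower in the knockout at each time, against 27.7% of all genes tested, and the exception was Spry4, which was slightly higher at 6 h. The median log2 fold change of the 10 genes, knockout over floxed, was −0.87, against 0.03 over all genes. The 10 genes were chosen with earlier results of these data known. Shares set beside them here and below are a description and not independent support. Fgf2 passed the test across all genes (quasi-likelihood test of edgeR, p adjusted over all genes at most 0.05), a call made for 2.22% of genes and for 1.3% in this direction. When culture time was entered as a block, which compares the genotypes within each time, 7 members passed (Fgf2, Fgf7, Fgf10, Fgfr2, Fgfr3, Spry2 and Dusp6), against 22.7% of all genes and 11.4% in this direction. Over all 8 libraries edgeR called 1 member with the block (Fgf10, against 0.337% of genes) and 0 without it (0.0% of genes), and at 24 h Fgfr1, Fgfr3 and Spry2 were higher in the knockout. In bulk RNA, fewer cells that express a gene and less RNA per cell cannot be told apart.

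**Figure D1:**
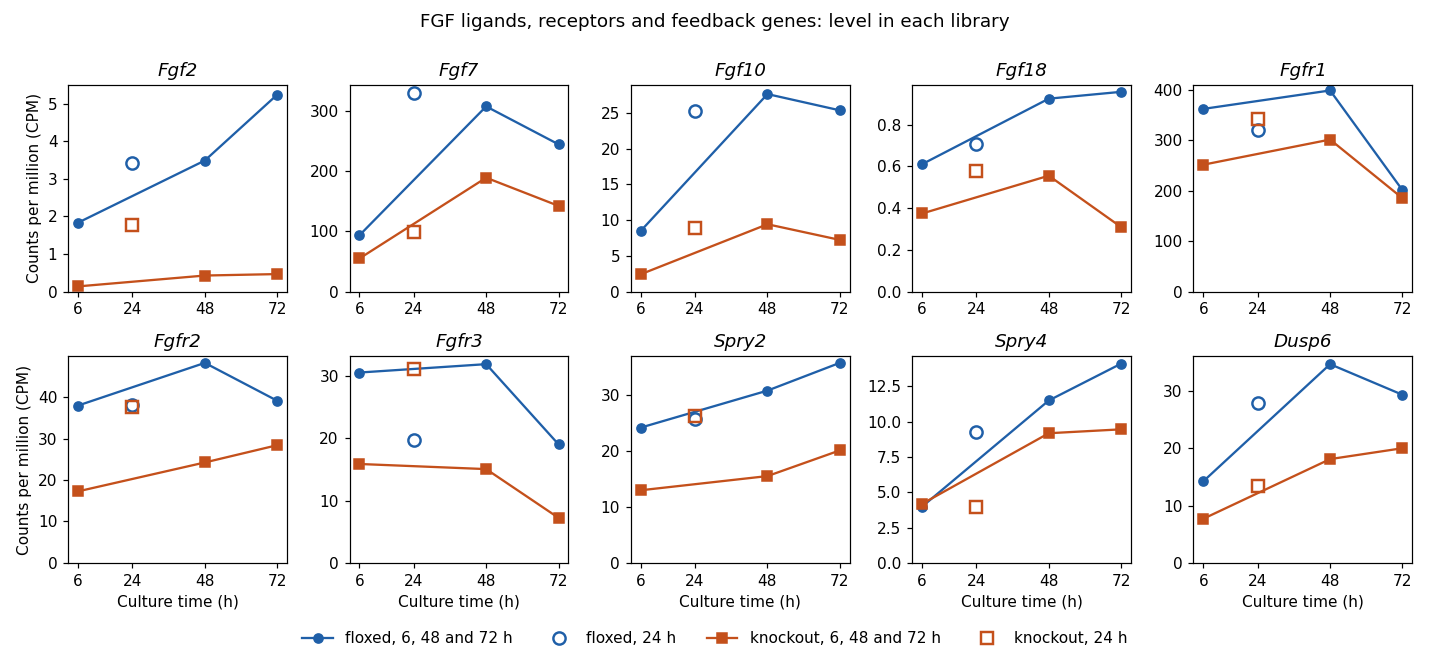
Level of each of the 10 genes in CPM (vertical axis, from 0) by hours of culture (horizontal axis), with floxed cells as blue circles and knockout cells as orange squares, 1 library per point. Lines join 6, 48 and 72 h, and open symbols are the 24 h libraries. The knockout line lies under the floxed line throughout for 9 genes, while the open square of Fgfr3 at 24 h (31.0) lies above the open circle (19.7).

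Fgf2, basic fibroblast growth factor, a mitogen of mesenchymal cells, had the largest fold difference of the 10 genes over the 6 libraries. It lies on chromosome 3 (coding transcript at chr3:37247268-37304299 in mm9, plus strand). Its level in the floxed libraries of 6, 24, 48 and 72 h was 1.83, 3.42, 3.49 and 5.24 CPM (57, 97, 113 and 164 counts). In the knockout libraries it was 0.136, 1.77, 0.425 and 0.463 CPM (4, 46, 13 and 12 counts). Every knockout library was below every floxed one, and the knockout library of 24 h came closest, just under the floxed 6 h level. The knockout level was 13.5-fold lower at 6 h, 8.20-fold at 48 h and 11.3-fold at 72 h, and 1.93-fold lower at 24 h.

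Over the 6 libraries, Fgf2 averaged 3.52 ± 1.70 CPM (SD, n = 3) in the floxed and 0.342 ± 0.179 CPM (n = 3) in the knockout cells. Its log2 fold change was −3.36 (SE 0.62, adjusted p = 0.0427 in edgeR, Benjamini-Hochberg adjusted over 13121 genes). With culture time as a block it was −3.35 (SE 0.29, adjusted p = 0.000518). Leaving out any of the floxed libraries of 6, 48 or 72 h, or the knockout library of 6 or 48 h, raised the adjusted p to between 0.057 and 0.178, and over all 18 alternatives it ran from 9.43e-06 to 0.483. With all 8 libraries and no block the log2 fold change was −2.35 (adjusted p = 0.483). The median log2 fold change of the 638 genes tested on chromosome 3 was −0.39.

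The last 242 bases of the Fgf2 transcript (chr3:37304058-37304299, 19.5% of its exonic length) also belong to exons of Nudt6 on the opposite strand, a Nudix hydrolase gene known as the antisense partner of Fgf2. The strand setting of the counting is not given in the sources used here, so that reads from this stretch cannot be assigned. Nudt6 had 6.79, 9.29, 9.32 and 10.3 CPM in the floxed libraries and 4.53, 6.67, 4.51 and 3.86 CPM in the knockout libraries, in the order of culture times. It was lower in the knockout at all 4 times, by a smaller factor than Fgf2. Its log2 fold change was −1.04 (SE 0.27, adjusted p = 0.137 in edgeR), and −1.01 (SE 0.21) with culture time as a block over 6 libraries, where it passed. The lncRNA Gm12541, which lies across the start of the Fgf2 transcript on the opposite strand, had 7, 6, 17 and 13 counts in the floxed and 0, 6, 2 and 3 counts in the knockout libraries.

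Fgf7, keratinocyte growth factor, made by mesenchyme and received by epithelium, was the most abundant ligand (chr2:125860394-125916921, plus strand). The floxed libraries of 6, 24, 48 and 72 h held 93.3, 329, 307 and 244 CPM, and the knockout libraries 54.8, 98.8, 189 and 142 CPM. The groups overlapped across times, because 6 h was the lowest time in each genotype, but the knockout was lower at every time. The knockout level was 1.70-fold lower at 6 h, 1.63-fold at 48 h and 1.72-fold at 72 h, a narrow range, and 3.33-fold lower at 24 h. Fgf7 did not pass edgeR's test without a block (log2 fold change −0.74, SE 0.56, adjusted p = 0.641) and passed with it (−0.75, SE 0.10, adjusted p = 0.00238), and over 19 alternatives the adjusted p ran from 0.00238 to 0.963.

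Fgf10, the mesenchymal ligand of Fgfr2 in tooth and limb buds, lies on chromosome 13 (transcript at chr13:119503506-119580922, plus strand). It stood at 8.49, 25.3, 27.6 and 25.4 CPM in the floxed libraries and at 2.42, 8.94, 9.42 and 7.22 CPM in the knockout libraries. The knockout was lower at each of the 4 times by a similar factor (3.51-fold, 2.83-fold, 2.94-fold and 3.51-fold), and the groups overlapped only through the floxed library of 6 h. The log2 fold change was −1.69 (SE 0.61, adjusted p = 0.273) without a block and −1.72 (SE 0.15, adjusted p = 0.000529) with it in edgeR. It was the 1 member that passed with the block over all 8 libraries, at −1.67 (adjusted p = 0.0427), a call made for 0.337% of genes and for 0.253% in this direction. Over 19 alternatives its adjusted p ran from 0.000529 to 0.696. A stretch of 69 exonic bases (1.68% of the transcript) is shared with the lncRNA Gm16263 on the opposite strand, which had 10 to 51 counts in the floxed and 5 to 11 counts in the knockout libraries.

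Fgf18, a ligand of skeletal and dental mesenchyme (chr11:33017430-33047400, minus strand), was barely expressed. Its counts were 19, 20, 30 and 30 in the floxed libraries and 11, 15, 17 and 8 in the knockout libraries, or 0.611 to 0.958 CPM and 0.309 to 0.578 CPM. Every knockout library was below every floxed one, the closest being 0.611 CPM (floxed, 6 h) and 0.578 CPM (knockout, 24 h). The log2 fold change of −1.0 (SE 0.42) did not pass edgeR's test (adjusted p = 0.343 without and 0.0845 with the block, and 0.0845 to 0.779 over 18 alternatives).

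Fgfr1, the main FGF receptor of mesenchyme, was the most abundant receptor (transcript at chr8:26629264-26686186, plus strand). Its level was 362, 320, 399 and 201 CPM in the floxed libraries and 252, 342, 301 and 185 CPM in the knockout libraries. Both genotypes were lowest at 72 h and the ranges overlapped. The knockout was lower at 6, 48 and 72 h, by a factor of 1.09 to 1.44, and 1.07-fold higher at 24 h. The log2 fold change of −0.37 (SE 0.29) did not pass edgeR's test without the block (adjusted p = 0.659) or with it (0.0686), nor in any of 19 alternatives (0.0686 to 0.969). Of its transcript, 125 bases (2.51%) are shared with the lncRNA Gm16159 on the opposite strand.

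Fgfr2, the receptor of Fgf7 and Fgf10 in its epithelial splice form, was less abundant than Fgfr1 (transcript at chr7:137306026-137409759, minus strand). Gene counts do not tell its splice forms apart. Floxed levels were 38.0, 38.1, 48.3 and 39.2 CPM, and knockout levels were 17.3, 37.7, 24.3 and 28.4 CPM. All knockout libraries lay below all floxed libraries, but at 24 h by just 1.01-fold, where the other times differed by 2.20-fold, 1.99-fold and 1.38-fold. Means were 41.8 ± 5.64 and 23.3 ± 5.63 CPM (SD, n = 3 each). The log2 fold change of −0.83 (SE 0.25, adjusted p = 0.184) became −0.86 (SE 0.16, adjusted p = 0.00865) with culture time as a block in edgeR, and the adjusted p ran from 0.00865 to 0.579 over 19 alternatives.

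Fgfr3, a receptor best known for restraining bone growth (chr5:34064373-34079716, plus strand), had the most negative log2 fold change of the receptors over the 6 libraries, and of the 3 genes that were higher in the knockout at 24 h it was so by the widest margin. It was at 30.5, 19.7, 31.9 and 19.0 CPM in the floxed libraries and at 15.9, 31.0, 15.04 and 7.22 CPM in the knockout libraries. At 6, 48 and 72 h the knockout was 1.92-fold, 2.12-fold and 2.63-fold lower and the groups did not overlap. At 24 h the order was the opposite, the knockout being 1.57-fold higher and at the level of the floxed libraries of 6 and 48 h. The log2 fold change over 6 libraries was −1.09 (SE 0.34, adjusted p = 0.209), and −1.13 (SE 0.15, adjusted p = 0.00223) with the block in edgeR, with a range of 0.00223 to 0.596 over 19 alternatives. DESeq2 called Fgfr3 and Fgf2 without a block.

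Spry2, a Sprouty inhibitor of receptor tyrosine kinase signaling (chr14:106291166-106296036, minus strand), was the most abundant feedback gene per length. Values were 24.2, 25.8, 30.8 and 35.7 CPM in the floxed cells and 12.97, 26.3, 15.5 and 20.1 CPM in the knockout cells. Apart from 24 h, where the levels were within 1.02-fold, the knockout was 1.86-fold, 1.98-fold and 1.78-fold lower and below every floxed library. Averages were 30.2 ± 5.80 and 16.2 ± 3.61 CPM (SD, n = 3 each). Spry2 had a log2 fold change of −0.90 in edgeR, with an SE of 0.27 (adjusted p = 0.186) without and 0.12 (adjusted p = 0.00285) with the block, and 0.00285 to 0.512 over 19 alternatives. Genes of chromosome 14 had a median of 0.19.

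Spry4, a further Sprouty (chr18:38745922-38760922, minus strand), differed least at the early time. It had 3.99, 9.25, 11.5 and 14.1 CPM in the floxed and 4.19, 3.97, 9.19 and 9.46 CPM in the knockout libraries. The genotypes were level at 6 h (124 and 123 counts), and the knockout was 2.33-fold lower at 24 h, 1.25-fold at 48 h and 1.49-fold at 72 h. It passed no genotype test, with a log2 fold change of −0.38 (SE 0.53, adjusted p = 0.828) in edgeR and −0.29 (SE 0.18, adjusted p = 0.287) with the block, and a range of 0.168 to 1.0 over 19 alternatives.

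Dusp6, the phosphatase that switches off ERK (chr10:98725865-98730122, plus strand), was measured at 14.3, 28.0, 34.7 and 29.4 CPM in the floxed libraries and at 7.73, 13.5, 18.1 and 20.05 CPM in the knockout libraries. The knockout was lower at each of the 4 times, by 1.85-fold, 2.07-fold, 1.91-fold and 1.47-fold, and the ranges overlapped because the floxed 6 h level was low. In edgeR the log2 fold change was −0.77 (SE 0.46, adjusted p = 0.531) without and −0.79 (SE 0.14, adjusted p = 0.00776) with the block. Its adjusted p ran from 0.00776 to 0.918 over 19 alternatives, and genes of chromosome 10 had a median of 0.30, in the opposite direction to Dusp6.

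**Figure D2:**
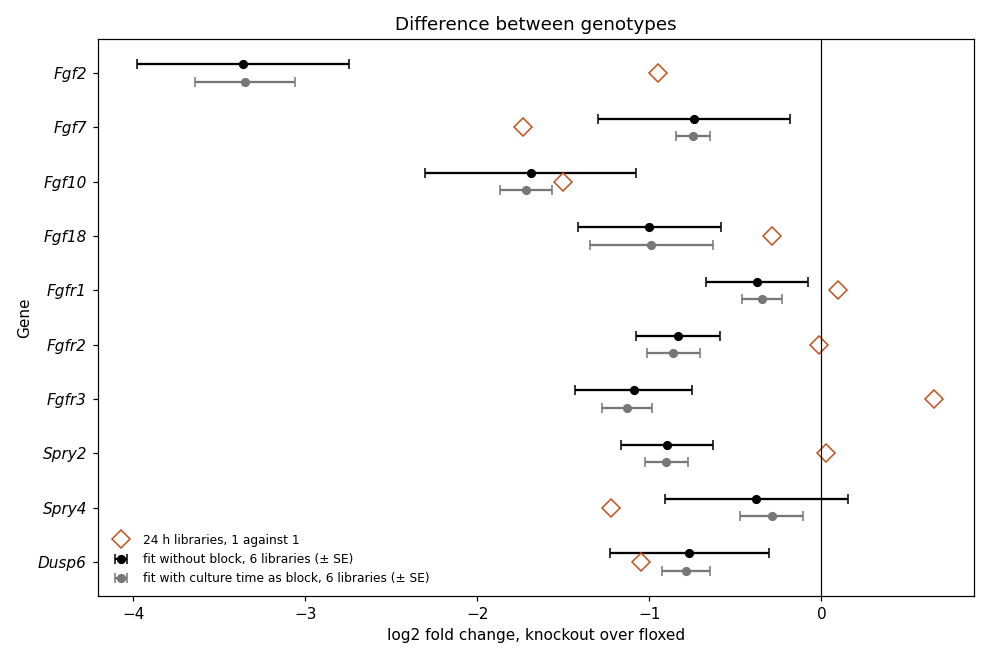
Log2 fold change of knockout over floxed (horizontal axis) for each gene (vertical axis). Black and grey points are edgeR fits over the 6 libraries of 6, 48 and 72 h without and with culture time as a block, with bars of 1 standard error, and open diamonds are the single 24 h libraries. Black and grey points are all below 0, grey bars are shorter, and the diamonds of Fgfr1 (0.10), Fgfr3 (0.65) and Spry2 (0.03) are above 0.

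The 10 genes fell into different patterns at 24 h. The 24 h level of the knockout was below that of the floxed library for 7 members, against 42.0% of all genes tested. Fgfr1, Fgfr3 and Spry2 were higher in the knockout at 24 h and lower at the other times, a pattern of 15.5% of all genes. The knockout 24 h level lay nearer to the floxed mean for Fgf2, Fgf18, Fgfr1, Fgfr2, Fgfr3 and Spry2, which is 6 of 10 against the 64.7% of all genes given above. Fgf7, Fgf10, Spry4 and Dusp6 lay nearer to the knockout mean. With 1 library per genotype, these values have no replicate check.

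Groups of 6, 48 and 72 h did not overlap, with the knockout below, for 5 members (Fgf2, Fgf18, Fgfr2, Fgfr3 and Spry2), against 10.5% of genes tested. With the 24 h libraries they did not overlap for Fgf2, Fgf18 and Fgfr2, against 1.4% of genes. By the rule of the study's methods, a log2 fold change beyond 1 in size with an unadjusted p under 0.05, edgeR called Fgf2, Fgf10, Fgf18 and Fgfr3, against 7.35% of genes and 4.04% in this direction. Fgf18 passed by the smallest margin, and the count was 3, without Fgf18, in DESeq2, in limma on log2 CPM and on log2 RPKM (the unit of the study's own test), with upper quartile scaling, with no filter and with the block over 6 libraries. Without a block, edgeR called 0 of the 10 genes and 0 of 13053 genes over all 8 libraries, where 6 of the 10 had an unadjusted p under 0.05, against 10.2% of genes. DESeq2 called 2 of the 10 over the 6 libraries, against 6.65% of genes.

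Levels can be set side by side only per length, and for this CPM was divided by the exonic length in kilobases of the longest coding transcript. In the floxed cells, Fgf7 (80.4 ± 41.1 CPM per kilobase, SD, n = 3) and Fgfr1 (64.3 ± 21.1) headed the order, followed by Spry2 (14.5 ± 2.78), Fgfr2 (9.91 ± 1.34), Dusp6 (9.35 ± 3.79), Fgfr3 (6.43 ± 1.67), Fgf10 (4.98 ± 2.54), Fgf2 (2.84 ± 1.37), Spry4 (2.15 ± 1.15) and Fgf18 (0.766 ± 0.177). Of neighbours in that order, Fgfr1 and Spry2, and Spry2 and Fgfr2, did not overlap over the 3 libraries, and the other neighbours did. In the knockout cells Fgfr1 (49.3 ± 11.7) and Fgf7 (48.1 ± 25.4) again stood at the head, above Spry2 (7.76 ± 1.73), Fgfr2 (5.52 ± 1.33), Dusp6 (5.47 ± 2.37) and Fgfr3 (3.01 ± 1.13). The low end of the knockout order was Spry4 (1.66 ± 0.648), Fgf10 (1.54 ± 0.870), Fgf18 (0.380 ± 0.118) and Fgf2 (0.275 ± 0.144). The mean of Fgf2 thus stood below that of Fgf18 there and above it in the floxed cells. In the knockout these 2 overlapped on few counts, and Fgf2 was the higher at 72 h (0.374 against 0.285) and at 24 h (1.43 against 0.532). Neighbours that did not overlap in the knockout were Fgf7 and Spry2, and Fgf10 and Fgf18. With the union of all annotated exons as the length, a choice made after seeing the data, the floxed means of Fgfr1, Fgfr2 and Fgfr3 were 39.8, 5.37 and 3.94 CPM per kilobase.

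**Figure D3:**
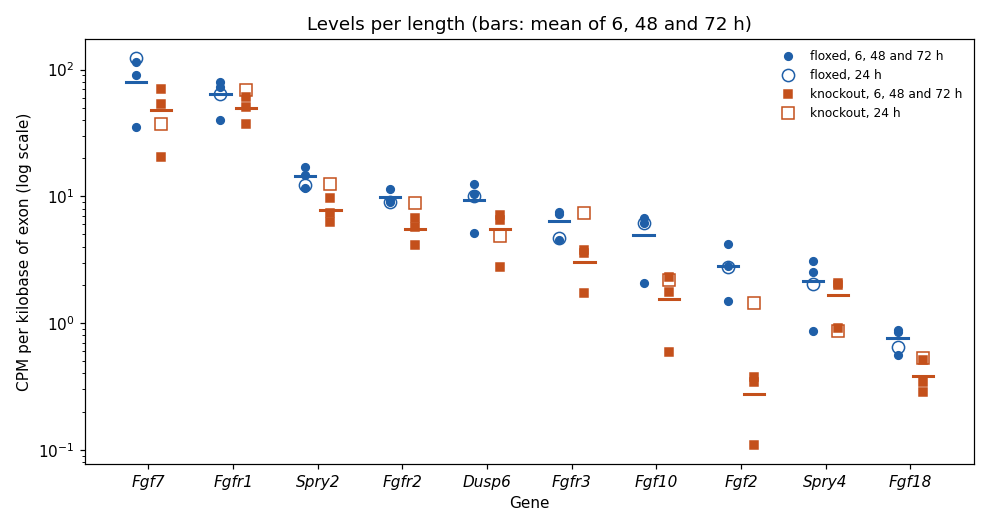
Level per length in CPM per kilobase of exon (vertical log axis) of the 10 genes, ordered by their floxed mean, with floxed libraries as blue circles and knockout libraries as orange squares. Filled symbols are 6, 48 and 72 h, bars are their means, and open symbols are 24 h. Fgf7 and Fgfr1 lie above all others, and the Fgf2 knockout mean (0.275) lies under that of Fgf18 (0.380), though their knockout libraries overlap.

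Several of the genes were higher at later culture times in both genotypes. Over the 6 libraries, with genotype in the model, the slope per doubling of culture time on the log2 scale was 0.52 for Fgf10 (SE 0.09), 0.48 for Fgf7 (SE 0.08), 0.44 for Spry4 (SE 0.07), 0.44 for Fgf2 (SE 0.10) and 0.38 for Dusp6 (SE 0.06). Spry2 (0.16), Fgfr2 (0.13) and Fgf18 (0.13) had smaller slopes, and Fgfr1 (−0.07) and Fgfr3 (−0.14) were the 2 members with a negative one. The slope of Fgfr1 was 0.013 without the floxed library of 72 h. After adjustment edgeR called 0 of the 10 genes and 0.0% of all genes, with adjusted p between 0.155 and 0.673 for the 10. At an unadjusted p under 0.05, Fgf2, Fgf7, Fgf10, Spry2, Spry4 and Dusp6 passed, 6 of 10 against 21.1% of genes tested. DESeq2 called 5 of them (all but Spry2), against 7.51% of genes, and limma 0. Without the knockout library of 48 h edgeR called 3 (Fgf7, Fgf10 and Dusp6), against 1.47% of genes.

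Whether the slope differed between the genotypes was tested as an interaction in edgeR over 7 libraries, all but the knockout library of 24 h. The difference in slope ran from −0.16 (Fgf18) to 0.14 (Fgfr2) among the 10 genes, and it depended on the 6 h libraries. Without the knockout library of 6 h it ran from −1.53 (Fgfr3) to 0.66 (Spry2), and without the floxed library of 6 h from −0.27 (Fgfr3) to 0.71 (Fgf7). Over the 7 libraries none passed after adjustment (adjusted p = 1.0 for each) or at an unadjusted p under 0.05, and DESeq2 also called 0 of them, against 0.0% of genes after adjustment in edgeR and 1.01% at the unadjusted limit.

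The wider FGF pathway was described through 7 gene lists, of which 101 genes were in the table and 77 passed the filter. Without a block, edgeR called 3 of the 77 as higher in the knockout (Sulf1, Hs6st2 and Spry1) and 0 as lower, with 0.915% of all genes higher and 1.3% lower by this call. With the block 9 were higher and 15 lower, against 11.3% and 11.4% of all genes, and over 8 libraries with the block none was called, against 0.337%. Of the 77 genes, 53 had a negative log2 fold change, and the median was −0.20, against −0.87 for the 10 genes and 0.03 for all genes. The 3 genes called without a block were lower in the knockout than in the floxed library at 24 h. Over all the lists, the number of genes called without a block fell to 0 without the floxed library of 6 h, the floxed library of 48 h or the knockout library of 48 h. It fell to 1 without the floxed library of 72 h or the knockout library of 6 h.

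Of 14 ligands outside the set, 8 had no more than 3 counts in any library and 3 passed the filter, with a median log2 fold change of 0.79. Fgf21, a metabolic hormone, had the most reads, at 2.98 ± 2.38 CPM in the floxed and 7.55 ± 4.82 CPM in the knockout cells (SD, n = 3 each), with a log2 fold change of 1.35 (SE 0.68, adjusted p = 0.446 in edgeR), and it passed with the block over 6 libraries. Fgf1 was at 0.381 ± 0.062 and 0.239 ± 0.133 CPM and did not pass (adjusted p = 0.657 in edgeR). Among the 4 intracellular FGF homologous factors, which do not act through FGF receptors, Fgf14 was tested and had a log2 fold change of 1.70 (SE 1.03, adjusted p = 0.536 in edgeR), passing with the block over 6 libraries, at 91 counts in all 8 libraries together, and Fgf11 had 62 counts in all and was filtered out.

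Co-receptors of FGFs include syndecans and glypicans, which carry heparan sulfate, the sugar chain that holds an FGF on its receptor. Of 16 receptors, co-receptors and binding proteins, 10 passed the filter, of which none passed the test in edgeR without the block and 8 had a negative fold change (median −0.26). With the block Gpc2 was higher and Fgfrl1, a receptor without a kinase domain, and Sdc1 were lower in the knockout. At 24 h Fgfrl1 was higher in the knockout (42.2 CPM) than in the floxed library (26.4 CPM), and Sdc1 was lower (114 and 190 CPM). The genes with the most reads, Sdc2 and Sdc4, had 379 ± 94.4 and 199 ± 71.1 CPM in the floxed and 332 ± 35.2 and 153 ± 76.3 CPM in the knockout cells (SD, n = 3 each) and did not pass. Of 15 heparan sulfate enzymes tested, the median was −0.25 and 2 rose. Sulf1, an extracellular sulfatase that trims 6-O-sulfate, rose from 12.3 ± 1.20 to 41.8 ± 10.6 CPM (log2 fold change 1.77, SE 0.25, adjusted p = 0.0200 in edgeR). Hs6st2, a sulfotransferase that adds 6-O-sulfate, rose from 11.1 ± 4.13 to 59.4 ± 25.1 CPM (2.42, SE 0.42, adjusted p = 0.0348 in edgeR). At 24 h, Sulf1 stood at 16.1 CPM in the floxed and 14.8 CPM in the knockout, and Hs6st2 at 15.2 and 8.25 CPM.

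With the block, 4 further heparan sulfate enzymes were lower in the knockout, namely Ext1, Extl1, Hs2st1 and Hpse. At 24 h, Hs2st1 (134 CPM in the floxed and 195 CPM in the knockout library) and Hpse (6.50 and 6.86 CPM) were higher in the knockout. Ext1 (574 and 540 CPM) and Extl1 (32.7 and 25.6 CPM) were lower there. Ext1, a polymerase of the chain and the gene with the most reads in the list, was at 639 ± 93.1 CPM in the floxed and 304 ± 137 CPM in the knockout cells (SD, n = 3 each), a log2 fold change of −1.06 (SE 0.35, adjusted p = 0.236 in edgeR without the block). Its partner Ext2 was at 171 ± 7.97 and 164 ± 14.0 CPM.

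Further feedback inhibitors split in direction. Spry1, the Sprouty outside the set of 10, rose in the knockout from 2.68 ± 0.910 to 11.6 ± 3.66 CPM (log2 fold change 2.11, SE 0.39, adjusted p = 0.0428 in edgeR), where Spry2 and Spry4 had negative fold changes. At 24 h Spry1 was lower in the knockout (1.503 CPM) than in the floxed library (3.88 CPM). Of 12 inhibitors tested, 8 had a negative fold change (median −0.25), and with the block Spry1 and Il17rd were higher and Dusp4 lower. Rasa1 and Nf1, GTPase-activating proteins of Ras and the genes with the most reads in this list, were at 142 ± 14.6 and 99.6 ± 11.6 CPM in the floxed and 135 ± 32.9 and 77.7 ± 22.9 CPM in the knockout cells, and neither passed.

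The 20 adaptors and kinases of the Ras-MAPK cascade tested had a median of −0.03 and none passed in edgeR without the block. With the block Map2k2 was higher, and Shc1 and Nras were lower. At 24 h, Shc1 (173 CPM in the floxed and 192 CPM in the knockout library) and Nras (141 and 169 CPM) were higher in the knockout, as was Map2k2 (147 and 163 CPM). Ptpn11, a phosphatase that carries the signal onward, was at 351 ± 39.4 CPM in the floxed and 312 ± 58.6 CPM in the knockout cells (SD, n = 3 each) and did not pass. Of 16 transcription factors and targets of the MAPK branch, 13 had a negative fold change (median −0.23) and none passed without the block. With the block Fos, Fosl1, Myc, Ier3 and Phlda1 were lower and Ccnd1, the cyclin D1 gene, was higher in the knockout. At 24 h Fos was higher in the knockout (13.5 CPM) than in the floxed library (11.0 CPM), while Fosl1, Myc, Ier3 and Phlda1 were lower. Ccnd1 was at 122 ± 87.8 CPM in the floxed and 226 ± 133 CPM in the knockout cells (SD, n = 3 each), but at 24 h at 210 CPM in the floxed and 42.6 CPM in the knockout library. Ets1, an ETS factor, was at 139 ± 42.4 and 118 ± 37.6 CPM and did not pass.

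**Figure D4:**
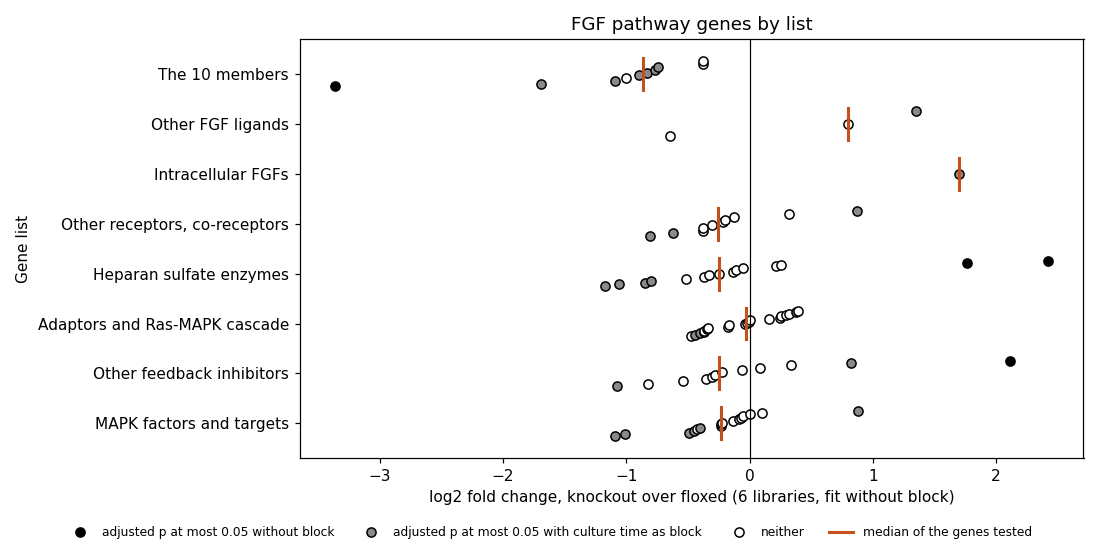
Log2 fold change of knockout over floxed without a block (horizontal axis) for the 10 genes and the tested genes of 7 pathway lists (vertical axis), 1 point per gene. Black points passed edgeR's test at an adjusted p of at most 0.05 without the block, grey points only with it, and orange bars are medians. The 10 genes all lie below 0 (median −0.87), and the list medians of receptors, heparan sulfate enzymes, cascade, inhibitors and targets lie between −0.26 and −0.03, while those of other ligands (0.79, 3 genes) and intracellular FGFs (1.70, 1 gene) lie above 0.

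The genes whose log2 CPM was most like that of a member over 7 libraries, all but the knockout library of 24 h, were listed for Fgf2, Fgfr2 and Dusp6. For Fgf2 they were Zranb1 (Pearson's r 0.996), Fam82a1 (0.989) and 5830417I10Rik (0.987), of which 1 stayed among the nearest 3 over the 6 libraries. Those of Fgfr2 were Sema6b, Sh3rf1 and Rai14, and those of Dusp6 were Yeats2, Vegfa and Ano6, with r between 0.989 and 0.993 for these 6 genes. The points share library and culture time, 13120 genes were compared, and the correlations are a description only.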

How the data were processed

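Total RNA of floxed and knockout cells was sequenced in 8 libraries. Per the labels the reads were single-end of 50 bases, while the study's methods name paired reads. The authors aligned them to mm9 with TopHat2 2.0.8b after CASAVA 1.8.2 and counted them with HTSeq, and deposited unnormalized counts per gene symbol and per lncRNA symbol. Annotation and strand setting are not given in the sources used here. HTSeq's summary rows, 52.0% to 59.0% of each table's total (41.3% to 49.6% for alignments at several positions), were left out of library sizes and tests, so reads from near-identical copies are not in the counts.

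Genotypes were compared over 6, 48 and 72 h with edgeR 4.0.16 in R 4.3.3 (TMM factors 0.935 to 1.04, filter of 10 counts and 15 in total, quasi-likelihood test, Benjamini-Hochberg adjustment over all genes tested, limit 0.05). CPM values are counts scaled to 1000000 on genes. Lengths, exons and mm9 coordinates came from GENCODE M1, which matched 95.7% of symbols. Culture time paired the libraries, since deviations from the genotype means correlated at 0.714, 0.536 and 0.841 at 6, 48 and 72 h over 13121 genes, so the fit with culture time as a block is given beside results it changed. The time slope used log2 of hours. The genotype test without a block and the time and interaction tests were tried on simulated data, and the fit with the block was not.

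Named genes were the 10 members, list genes past the adjusted limit, the 2 with the most counts per list, Nudt6, Bmp2 and the 3 genes most like Fgf2, Fgfr2 and Dusp6. Of these, 1 list gene is not reported here. Genes that passed only with the block were named after their values were seen. Members and lists were chosen with earlier results of these data known. Alternatives were all 8 and 7 libraries, culture time as a block, DESeq2 1.42.0, upper quartile scaling, limma 3.58.1 on log2 CPM (offset 0.5) and log2 RPKM (offset 0.1), no filter, a minimum of 10 counts in each library, time in hours and each library left out. The block without each time pair and union exon lengths were added after seeing the data. Figures were drawn with matplotlib 3.10.9, and summaries used pandas 2.3.3 and numpy 2.4.6 under Python 3.11.15.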

Additional observations from a re-analysis of the deposited data

Results flagged for a closer look

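Among the 22 groups of 4 libraries (the members and Nudt6 in each genotype) that were checked for a sample far from the others, 2 had one. The 4 libraries of a group are different culture times and not replicates, and groups share libraries, so no rate expected by chance is given. In the floxed cells, Fgf10 at 6 h (8.49 CPM) lay below the other times (25.3 to 27.6 CPM), a gap of 0.879 of the whole range. In the knockout cells 6 h was also its lowest time (2.42 CPM, against 7.22 to 9.42 CPM). Fgfr2 at 48 h (48.3 CPM) lay above the other floxed libraries (38.0 to 39.2 CPM), a gap of 0.889 of the range.

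For 3 receptors and inhibitors the order of the genotypes at 24 h was opposite to that at 6, 48 and 72 h, where the knockout was lower each time. The log2 difference at 24 h, knockout minus floxed, was 0.653 for Fgfr3, 0.0957 for Fgfr1 and 0.0283 for Spry2. The reversal was not tested, because there is 1 library per genotype at 24 h. For Fgfr1 and Spry2 the 24 h values are close to level, while the 805 against 559 counts of Fgfr3 are not.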

How the results depend on the processing

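All 10 genes had a negative genotype log2 fold change in every alternative in which they were tested. Of 188 such values, 155 kept their side of the limit, 26 moved inside it, 7 moved outside it and 0 changed sign. All 7 that moved outside were of Fgf2, the 1 member called in the main fit. Those that moved inside came from fits with culture time as a block, except Fgfr3 in DESeq2. The alternatives share libraries, so these values are not independent. The number of members called at the adjusted limit was 1, and became 0 over all 8 libraries, 7 with culture time as a replicate block, 7 with the block less the 6 h, the 48 h or the 72 h pair, 1 with the block over 8 libraries (Fgf10 in place of Fgf2), 2 in DESeq2 and 0 with at least 10 counts in every library, where Fgf2 and Fgf18 were not tested. The block fits less a time pair had 1 residual degree of freedom, used subsets of the same libraries and were added after seeing the data. The number of members called ran from 0 to 1 with a library left out. By fold and unadjusted p it was 4, and became 3 in DESeq2, in limma, with upper quartile scaling, with no filter, with the block and over 7 libraries, 2 over all 8 libraries, with the block over 8 libraries and with at least 10 counts in every library, and 1 to 6 with a library left out (1 without the floxed library of 48 h, 6 without the floxed library of 6 h).

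In the pathway lists the 3 calls of 77 genes tested became 0 over all 8 libraries, 6 over 7 libraries, 24 with the block, 0 with the block over 8 libraries, 6 in DESeq2 (which called 6.65% of all genes), 1 with at least 10 counts in every library, and 15, 21 and 17 with the block less the 6, 48 and 72 h pair. By fold and unadjusted p the count was 6 of 77, near the 7.35% of all genes, and became 10 over 7 libraries, 11 with the block, 11 less the 48 h pair and 14 less the 72 h pair. With a library left out these counts ran from 0 to 4 and from 4 to 15.

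Of the culture time calls, 0 became 5 in DESeq2 and ran from 0 to 3 with a library left out. Of 120 slopes, 111 kept their side, 8 moved inside the limit and the slope of Fgfr1 changed sign (−0.13 to 0.013 with a library left out, the latter without the floxed library of 72 h). Levels per kilobase stayed within the spread for 34 of 40 values. Each cause was not tested. The block over 6 libraries leaves 2 residual degrees of freedom, Fgf2 and Fgf18 rest on few counts in the knockout, and with 1 library per genotype and time the spread includes culture time.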
